A study of Mus musculus with 12 samples.

Results

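Respiratory complex I takes electrons from NADH, passes them to ubiquinone and pumps protons across the inner mitochondrial membrane. Its core subunits carry the NADH site, the iron-sulphur clusters and the quinone site, and part of the core is encoded by mitochondrial DNA. Accessory subunits surround the core in the matrix arm and in the proximal and distal parts of the membrane arm, and assembly factors help to build the enzyme without staying in it. Skeletal muscle is rich in this enzyme. The genes described here are the protein-coding mouse genes whose symbol begins with Nduf followed by a subunit or assembly factor letter and a number. The rule took 46 of the 55536 genes in the count table. Of these, 36 encode subunits and 8 encode assembly factors (Ndufaf1 to Ndufaf8). The other 2 are Ndufa4, now counted as a subunit of cytochrome c oxidase, and its hypoxia-inducible paralog Ndufa4l2. All 46 passed the filter on low counts in both comparisons below.

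RNA was sequenced from 11 mouse tumours and 1 skeletal muscle. The study set tumours made by a fusion of the mouse Ewsr1 and Atf1 genes against tumours made by an EWSR1-ATF1 transgene, the fusion known from clear cell sarcoma. The translocation tumours (genotype HprtCre; Ewsr1-loxP; Atf1-loxP, n = 5) carry Cre at the Hprt locus together with loxP sites in Ewsr1 and in Atf1. The Rosa26 tumours (genotype Rosa26-LSL-EWSR1-ATF1, n = 6) carry the fusion behind a stop cassette that Cre removes. The muscle is wild type (WT, n = 1). No library was from a drug-treated animal. The sources used here do not give the animals' age, the site of each tumour or how Cre reached the Rosa26 mice. Nothing in the labels ties each library to an animal of its own. The p-values therefore speak only of the spread among these libraries, part of which may be technical. The titles of translocation tumours 2 and 5 begin alike, although the sex read from Xist and Y-linked genes differed between them. The titles of translocation tumour 1 and the muscle share a number. Those of Rosa26 tumours 5 and 6 are consecutive numbers, and an alternative fit below sums the counts of these tumours.

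Depth was 2.96 to 21.2 M counts for translocation tumours and 6.82 to 21.5 M for Rosa26 tumours, and the muscle library was deeper than any tumour. The ribosomal RNA genes Gm26917, Gm42418 and Gm23935 took 37.8% of the counts of translocation tumour 2 and 30.0% of those of Rosa26 tumour 4. The remaining 9 tumours gave them 1.34 to 7.38%. The 16 skeletal muscle markers summed to 590304 CPM in the muscle library. In the tumours they summed to 87870 CPM in Rosa26 tumour 1 and to at most 7745 CPM elsewhere. Here and below CPM values are library-size scaled counts, normalized over the 12 libraries by TMM, which takes most genes as unchanged.

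Summed over the subunits on the TMM scale, complex I transcripts were at a higher level in every translocation tumour than in every Rosa26 tumour. Taken singly, 5 of the 46 genes passed the test and 0 did after a correction for transcript length. Both tumour groups lay below the muscle for most subunits. The 36 subunits together reached 2671, 2461, 2345, 2183 and 5184 CPM in translocation tumours 1 to 5. In Rosa26 tumours 1 to 6 the sums were 1800, 1778, 1115, 769 and then 1171 and 1242 CPM. The tumour groups did not overlap on this scale. The muscle library held 10581 CPM. As a share of all counts the tumour groups did overlap. The 46 genes held 0.210% in translocation tumour 2, below 0.237% and 0.211% in Rosa26 tumours 1 and 2. The 8 assembly factors summed to between 97.6 and 119 CPM in translocation tumours 1 to 4 and to 318 CPM in tumour 5, to between 44.1 and 96.6 CPM (median 70.5) in the Rosa26 tumours, and to 232 CPM in the muscle. Translocation tumour 5 exceeded the muscle for this sum. It was the highest of the 11 tumours for 35 of the 46 genes, and Rosa26 tumour 4 was the lowest for 36. In bulk RNA, fewer cells of a type and less RNA per cell cannot be told apart.

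**Figure D1:**
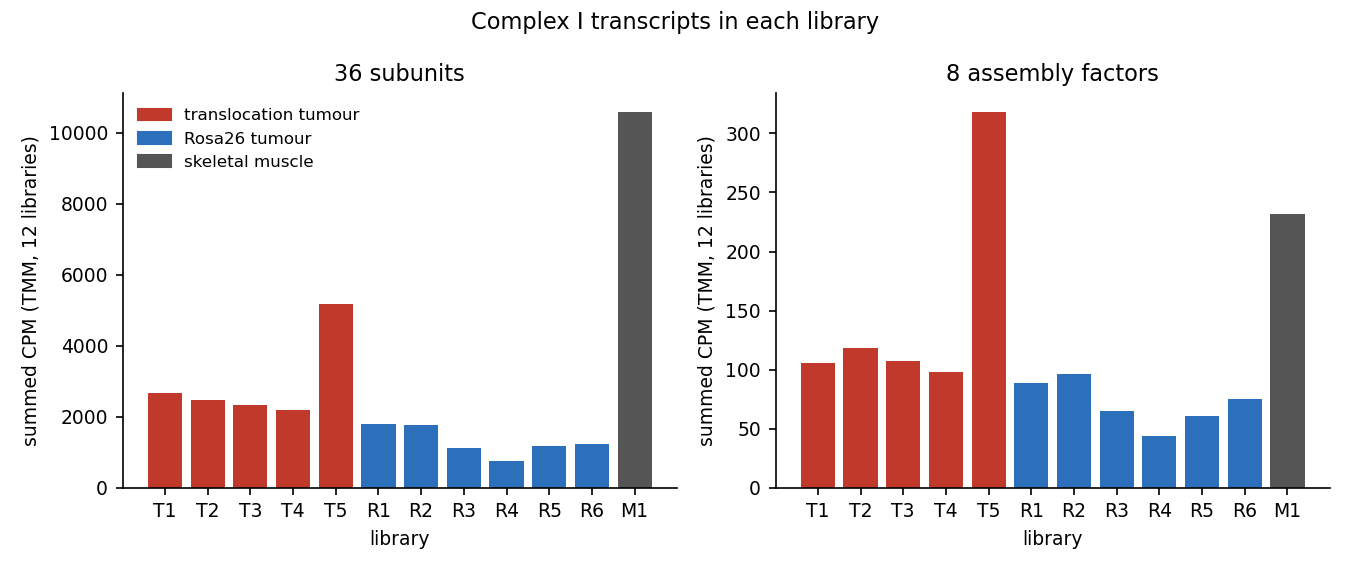
Summed CPM of the 36 subunits (left) and the 8 assembly factors (right) in each library, as bars from 0 (T, translocation tumours; R, Rosa26 tumours; M, muscle). Subunit sums are 2183 CPM or more in every translocation tumour and 1800 CPM or less in every Rosa26 tumour, and 10581 CPM in the muscle. Assembly factors reach 318 CPM in translocation tumour 5, above the 232 CPM of the muscle.

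Levels can be compared between genes only per length, so counts were also expressed as TPM, a per-length measure of relative transcript abundance, within each library, from the summed exon length of each gene. Ndufa1, an accessory subunit of the proximal membrane arm, had the highest median TPM over the 11 tumours, at 269. Ndufa2, of the matrix arm, followed at 220 TPM and Ndufa13, of the proximal membrane arm, at 141 TPM. Over the tumours Ndufa1 ran from 13.6 to 543 TPM and Ndufa13 from 20.2 to 204 TPM, a range that includes a shift of whole libraries. Within libraries Ndufa2 exceeded Ndufa13 in 11 of 11 tumours, and Ndufa1 exceeded Ndufa2 in 7 of 11. The lowest subunits were Ndufab1 at 6.54 TPM, Ndufb4 at 9.70 TPM and Ndufb2 at 12.7 TPM. Annotated lengths of Ndufab1 and Ndufb2 are long, with 6883 and 5628 bases of summed exons and longest transcripts of 3479 and 4371 bases. The subunit median of the longest transcript was 1025.5 bases. Before division by length, Ndufab1 and Ndufb2 had a higher mean CPM than Ndufs5 in each tumour group. Ndufab1 is the mitochondrial acyl carrier protein, which also serves fatty acid synthesis. By the summed exons, Ndufaf1, which acts on the membrane arm, had the highest median of the assembly factors at 18.9 TPM, although it exceeded Ndufaf8 in only 4 of 11 tumours. Ndufaf2, which acts late in assembly, was the lowest at 4.28 TPM. The spans of Ndufa13, Ndufb2 and Ndufb9 each overlap another coding gene on the same strand, which leaves their levels less certain. Some ranks rest on the length used: Ndufa7 moved from rank 22 to rank 5, and Ndufs1 from 30 to 13, when the longest transcript replaced the summed exons. By that length Ndufb9 took rank 3 and Ndufa13 rank 6, Ndufaf8 passed Ndufaf1, and Ndufs5 replaced Ndufb4 among the lowest 3 subunits; Ndufa1, Ndufa2 and Ndufaf2 held their places.

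The first question was whether the genes differ between the genotypes. All 46 had a positive fold change for translocation over Rosa26 tumours, with a median log2 fold change of 1.24 against 0.07 over all 17021 genes tested. Of these 46, 5 passed edgeR's quasi-likelihood test at an adjusted p under 0.05, all higher in the translocation tumours and all accessory subunits, and 0 were lower. Over all genes tested, 1.14% were called higher and 1.56% lower. At an unadjusted p under 0.05 there were 40. The share of all genes under that unadjusted cut-off was not counted, so this number has no baseline here. In 11 of the 46, all subunits, every translocation tumour lay above every Rosa26 tumour, as did 2.20% of all genes tested. The 5 called genes were Ndufb6, Ndufb7 and Ndufb10 of the distal membrane arm, Ndufa7 of the matrix arm and Ndufv3 of the NADH-binding end of that arm.

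Ndufb6 measured 86.7, 74.4, 52.0, 57.7 and 155 CPM in translocation tumours 1 to 5 and 8.75 to 37.4 CPM (median 20.1) in the Rosa26 tumours. The groups did not overlap, and the log2 difference for Ndufb6, which rose, was 1.98 ± 0.39 (SE; edgeR adjusted p = 0.0276). Ndufa7 measured 110, 81.4, 83.6, 88.1 and 145 CPM against 16.6 to 60.1 CPM (median 30.6), also without overlap. Its log2 fold change was 1.55 ± 0.32 (SE; edgeR adjusted p = 0.0305). Ndufb10 measured 63.3, 64.4, 70.1, 63.4 and 136 CPM against 17.3 to 45.1 CPM (median 34.6). The first 4 values lay close together, tumour 5 stood above them and the groups did not overlap. Its log2 fold change was 1.28 ± 0.29 (SE; edgeR adjusted p = 0.0431).

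Ndufb7 and Ndufv3 were close to the threshold and overlapped between the groups. Ndufb7 measured 78.5, 122, 58.9, 58.9 and 127 CPM in the translocation tumours and 23.3 to 60.6 CPM (median 35.2) in the Rosa26 tumours, where tumour 2 exceeded translocation tumours 3 and 4. Its log2 fold change was 1.32 ± 0.32 (SE; edgeR adjusted p = 0.0498). Ndufv3 measured 69.0, 93.7, 40.5, 49.0 and 59.6 CPM against 25.9 to 41.3 CPM (median 29.8). Its log2 fold change was 1.05 ± 0.25 (SE; edgeR adjusted p = 0.0484). Ndufv3 was the called gene in which translocation tumour 5 was not the highest of the tumours.

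**Figure D2:**
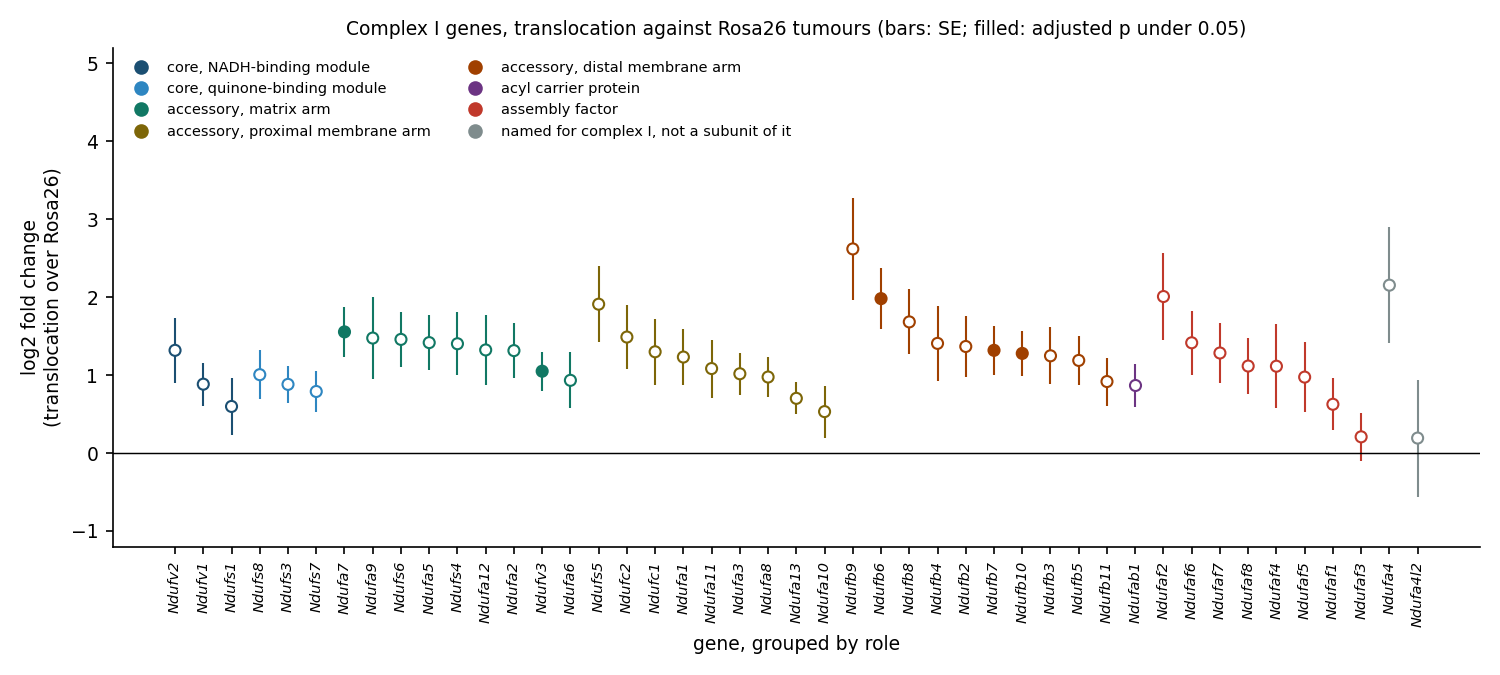
Log2 fold change of the complex I genes (1 is not shown), translocation over Rosa26 tumours, grouped by role. Bars are the SE derived from the edgeR test statistic, and filled points passed at an adjusted p under 0.05. All points lie above 0, 5 accessory subunits are filled, and the bars of Ndufaf3 and Ndufa4l2 cross 0.

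The groups by role differed little in their medians. The 9 matrix-arm accessory subunits had a median log2 fold change of 1.40, with 2 called. The 10 of the distal membrane arm had 1.34, with 3 called. The 9 of the proximal membrane arm had 1.08 and the 7 core subunits 0.88, with 0 called in either. Among core subunits the fold change ran from 0.60 for Ndufs1, which carries iron-sulphur clusters, to 1.32 for Ndufv2, its neighbour in the NADH-binding module. The 8 assembly factors had a median of 1.11, with 0 called. The differences between these roles were not tested.

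Among the assembly factors, Ndufaf2 had the largest fold change and the smallest adjusted p with all libraries. It measured 9.69, 7.01, 9.18, 9.90 and 57.6 CPM in the translocation tumours and 2.97 to 7.02 CPM (median 4.70) in the Rosa26 tumours. Translocation tumour 5 stood far above the other 4, and the log2 fold change of 2.01 ± 0.55 (SE) did not pass (edgeR adjusted p = 0.0654). Without that tumour it was 0.94, below 1.06 for Ndufaf6 and 1.02 for Ndufaf8. Ndufaf6, which acts on the quinone-binding module, measured 7.96, 17.1, 7.23, 5.91 and 22.0 CPM against 3.15 to 6.99 CPM (median 4.45), and its log2 difference was 1.41 ± 0.41 (SE; edgeR adjusted p = 0.0740). Ndufaf3, which acts early on the same module, had the smallest of the 8, at 0.21 ± 0.31 (SE; edgeR adjusted p = 0.719).

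Ndufa4 and Ndufa4l2 were treated apart. Ndufa4 measured 124, 35.5, 199, 74.5 and 693 CPM in the translocation tumours and 6.30 to 102 CPM (median 53.3) in the Rosa26 tumours. The groups overlapped, and its log2 fold change of 2.15 ± 0.75 (SE) did not pass (edgeR adjusted p = 0.109). Without translocation tumour 5 it was 1.09. Ndufa4l2 measured 43.0, 103, 23.6, 86.4 and 11.4 CPM against 6.18 to 132 CPM (median 39.7), and its log2 fold change was 0.19 ± 0.75 (SE; edgeR adjusted p = 0.903). Translocation tumour 5, the highest for Ndufa4, was the lowest of its group for Ndufa4l2. The 12 hypoxia markers had a median log2 fold change of 0.82, and Ndrg1, a stress-response gene induced by low oxygen, was the 1 called, at 1.37 ± 0.31 (SE; edgeR adjusted p = 0.0429).

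The sign of the genotype difference moved with transcript length over the whole table. The longest annotated transcript had a median of 1170.5 bases in the 46 genes and of 3457 bases in the coding genes tested. Coding genes of over 500 to 1000 bases had a median log2 fold change of 1.06, against 1.30 for the 18 complex I genes of that length. Coding genes of over 2000 to 3000 bases had 0.24, against 1.17 for 6 complex I genes, and those above 5000 bases had -0.33. Per library, genes up to 1000 bases stood 0.71, 0.61, 0.40, 0.46 and 1.37 log2 units above those over 5000 bases in translocation tumours 1 to 5, each gene set to its mean over the 11 tumours. The same difference was -0.42, 0.13, -0.80, -1.14, -0.72 and -0.56 in Rosa26 tumours 1 to 6. The complex I genes themselves had median deviations of 0.51, 0.41, 0.32, 0.31 and 1.42 in the translocation tumours and from -1.39 in Rosa26 tumour 4 to 0.02 in Rosa26 tumour 2. Thus the libraries at the 2 ends were the same for short genes and for complex I genes.

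With each library's trend over transcript length removed, 0 of the 46 genes were called in edgeR's test (18 at an unadjusted p under 0.05; 0.452% of all genes were called higher). The median log2 fold change was then 0.55 and 44 of the 46 were positive. Ndufb6 then had a log2 fold change of 0.97 (edgeR adjusted p = 0.0628) and Ndufb7, whose longest transcript has 4435 bases, of 1.46 (edgeR adjusted p = 0.0547). Without translocation tumours 2 and 5 and Rosa26 tumour 4, and with no length correction, the median was 0.71 and 5 genes were called (1.57% of all genes were called higher), of which Ndufb6, Ndufa7 and Ndufb10 were among the 5 above. With both changes the median was 0.26, 38 of 46 were positive and 0 were called (11 at an unadjusted p under 0.05). That fit called 397 over all genes, in either direction. For the unadjusted counts the share of all genes was not counted. Whether RNA quality or another property of the libraries lies behind the trend was not tested.

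**Figure D3:**
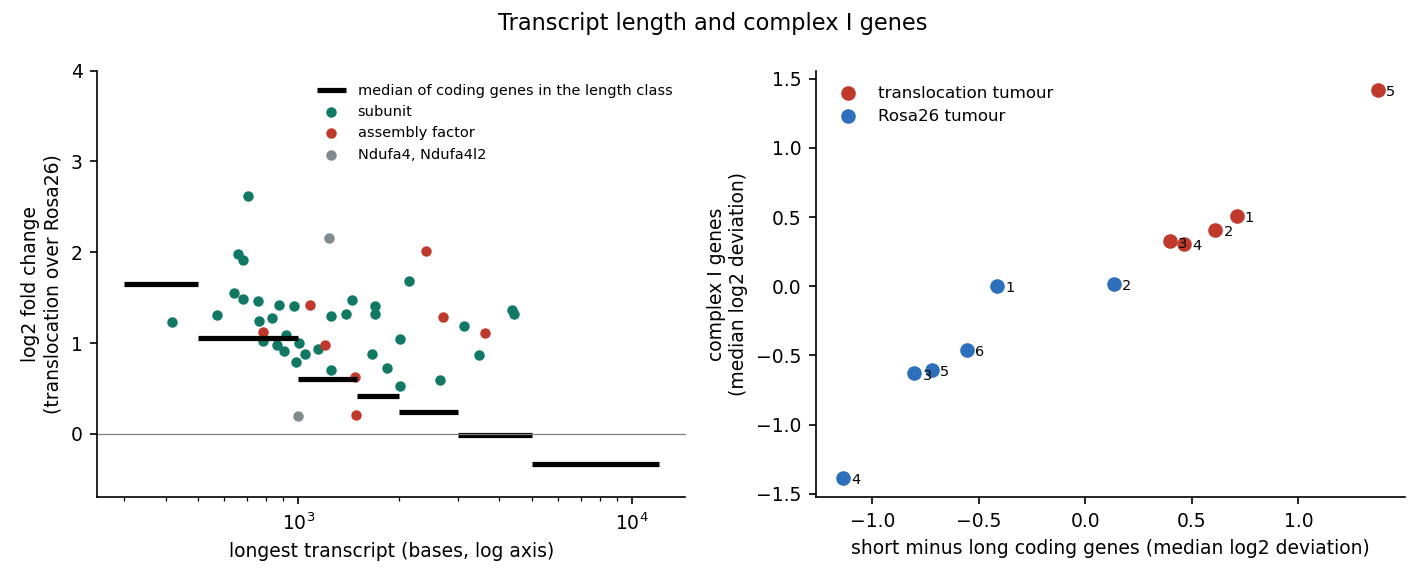
Left, log2 fold change (translocation over Rosa26) of each complex I gene against its longest transcript in bases on a log axis, with the median of all coding genes of each length class as a bar. Right, each tumour's median log2 deviation of complex I genes against its difference between coding genes up to 1000 bases and over 5000 bases. The class medians fall from 1.65 to -0.33 with length, and translocation tumour 5 and Rosa26 tumour 4 lie at the ends of both axes.

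Calls also depended on single libraries and on the model. Leaving out translocation tumour 1, or Rosa26 tumour 3, 5 or 6, left 0 calls, while calls over all genes went from 460 to 112, 63, 123 and 75 and the median log2 fold change of the 46 genes was 1.26, 1.21, 1.21 and 1.25. Leaving out Rosa26 tumour 2 gave 8, with 429 calls over all genes. Ndufb6 and Ndufa7 were each called in 7 of the 11 fits without 1 tumour. Among other models, DESeq2's Wald test called 31 of the 46 (6.04% of all genes were called higher). With sex as a covariate, edgeR called 30 (9.11% of all genes were called higher). Sex was unbalanced, as 4 of 5 translocation and 2 of 6 Rosa26 tumours read as female. The male translocation tumour was tumour 5, so within that group the sex covariate cannot be told apart from that tumour. In edgeR, DESeq2 size factors gave 3 calls, no filter 2 and muscle kept in the fit 2. Total counts gave 1, and Rosa26 tumours 5 and 6 summed gave 0. Over all genes these fits called 444, 327, 360, 312 and 91, in that order, against 460 in the main fit.

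The other genes of the respiratory chain were read from lists. Of the other nuclear respiratory chain subunits, 40 were tested, all with a positive fold change, and the median log2 fold change was 1.38. Of these 40, 11 were called higher, against 1.14% of all genes tested. The part of transcript length in this list was not tested. Uqcr10 of complex III rose by a log2 value of 2.43 (edgeR adjusted p = 0.0117) and Uqcrq of the same complex by 1.80 (edgeR adjusted p = 0.0256). Cox4i1 of complex IV had 1.75 (edgeR adjusted p = 0.0282). The complex I subunits encoded by mitochondrial DNA had a median of 0.40, with 6 of 7 tested and 0 called. The 11 assembly factors without the Ndufaf name had a median of 0.73, all positive and 0 called, and the 12 tested regulators of mitochondrial biogenesis had 0.24, with 0 called. Of these 12 regulators 8 were positive and 4 negative. Esrra, a nuclear receptor that drives respiratory genes, showed a log2 difference of 0.997 ± 0.37 (SE; edgeR adjusted p = 0.131). Pprc1, another of these regulators, went the other way, at -0.74 ± 0.32 (SE; edgeR adjusted p = 0.182).

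Markers of other cells were read in the same comparison, and 2 T cell genes were the only ones called. The 16 skeletal muscle markers had a median log2 fold change of -2.97 with 0 called, opposite in sign to the complex I genes. Their summed level ran from 52.5 to 7745 CPM in the translocation tumours and from 104 to 87870 CPM in the Rosa26 tumours. Of 6 T cell markers tested, Cd3e and Trac were called lower. Both were near the floor, with means of 0.0943 and 0.113 CPM in the translocation tumours. In the Rosa26 tumours their means were 3.74 and 3.40 CPM, with SDs of 4.95 and 3.85 CPM. The T cell list summed to between 4.61 and 23.6 CPM in the translocation and 7.89 and 92.7 CPM in the Rosa26 tumours. The 5 erythroid markers were all positive with 0 called, and summed to between 148 and 11227 CPM in the translocation and 2.62 and 1002 CPM in the Rosa26 tumours. The 8 macrophage, 8 mural and 2 tested adipocyte markers had 0 called. The part of these cells in the complex I difference was not tested, beyond a fit that took the skeletal muscle markers as covariate, which called Ndufb6 and Ndufa7 and left the median log2 fold change of the 46 genes at 1.25.

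Promoter sequence was read for the genes the results name. RefSeq windows of 300 bases, 250 before and 50 after the annotated start (build GRCm38.p6), were found for 40 of the 46 genes. They were searched on both strands for 4 letter strings, none of which contains another. The NRF1 string, GCGCA then any base then GCGC, is bound by a regulator of respiratory genes and was in 9 of the 40 (22.5%) and in 5.19% of the 27025 gene promoters in the table. The YY1 string AAGATGGC was in 8 (20.0%, against 3.19%) and the ETS and GABP string CCGGAAG in 6 (15.0%, against 9.93%). The CREB and ATF string TGACGTCA, which the DNA-binding domain of ATF1 recognises, was in 3 (7.50%, against 2.03%). A match is a string of letters and no evidence of binding. The windows of 2 called genes with an ETS and GABP match and of the 3 genes with a CREB and ATF match are shown 5′ to 3′ on the gene's strand, with each match, on either strand, in capitals. They lie at chr4:40279372-40279671 (Ndufb6, minus strand), chr8:83566508-83566807 (Ndufb7, plus), chr1:92473709-92474008 (Ndufa10, minus), chr17:56717512-56717811 (Ndufa11, plus) and chr6:39592315-39592614 (Ndufb2, plus).
Ndufb6: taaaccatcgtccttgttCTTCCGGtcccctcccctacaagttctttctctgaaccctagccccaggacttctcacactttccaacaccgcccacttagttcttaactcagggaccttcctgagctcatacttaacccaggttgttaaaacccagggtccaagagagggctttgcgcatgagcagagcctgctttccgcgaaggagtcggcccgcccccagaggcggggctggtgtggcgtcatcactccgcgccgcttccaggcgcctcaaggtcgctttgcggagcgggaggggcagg
Ndufb7: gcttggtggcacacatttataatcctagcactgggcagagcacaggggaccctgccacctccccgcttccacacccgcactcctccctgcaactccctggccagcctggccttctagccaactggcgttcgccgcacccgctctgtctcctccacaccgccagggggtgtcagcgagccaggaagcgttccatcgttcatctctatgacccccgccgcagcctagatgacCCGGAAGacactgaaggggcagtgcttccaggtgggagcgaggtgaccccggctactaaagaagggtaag
Ndufa10: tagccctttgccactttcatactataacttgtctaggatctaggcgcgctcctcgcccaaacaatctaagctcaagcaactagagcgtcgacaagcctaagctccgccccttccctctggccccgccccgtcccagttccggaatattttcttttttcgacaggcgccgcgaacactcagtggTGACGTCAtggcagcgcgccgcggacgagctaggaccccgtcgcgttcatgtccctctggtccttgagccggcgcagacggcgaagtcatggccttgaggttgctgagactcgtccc
Ndufa11: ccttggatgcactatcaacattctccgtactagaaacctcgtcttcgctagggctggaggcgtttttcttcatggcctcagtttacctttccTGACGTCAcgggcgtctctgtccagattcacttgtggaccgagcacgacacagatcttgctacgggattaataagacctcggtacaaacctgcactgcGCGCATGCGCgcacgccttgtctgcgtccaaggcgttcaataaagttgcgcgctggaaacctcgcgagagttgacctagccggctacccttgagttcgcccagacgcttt
Ndufb2: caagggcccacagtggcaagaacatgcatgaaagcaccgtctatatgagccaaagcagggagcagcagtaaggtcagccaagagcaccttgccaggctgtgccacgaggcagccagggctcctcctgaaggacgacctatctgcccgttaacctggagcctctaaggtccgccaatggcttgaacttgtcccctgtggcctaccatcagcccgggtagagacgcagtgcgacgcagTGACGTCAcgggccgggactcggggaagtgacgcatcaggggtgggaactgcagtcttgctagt

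Ndufa11 holds an NRF1 match as well. The 3 genes with the CREB and ATF string were chosen for it and were not called between the genotypes. Ndufa10, of the proximal membrane arm, showed a log2 difference of 0.53 ± 0.33 (SE; edgeR adjusted p = 0.343). Ndufa11 of the same arm had 1.08 ± 0.37 (SE; edgeR adjusted p = 0.108), and Ndufb2 of the distal arm had 1.37 ± 0.39 (SE; edgeR adjusted p = 0.0727).

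The second question was how the tumours compare with normal muscle. Muscle is 1 library, so the spread in this test comes from the tumours alone and muscle is assumed to vary like them. A gene was called at an edgeR adjusted p under 0.05 with a log2 fold change at or beyond 1 in either direction. For the mean of both tumour groups over muscle, 30 of the 46 genes were lower, all of them subunits, and 0 were higher; over all 22184 genes tested 11.4% were lower and 5.25% higher. The median log2 fold change was -2.35 for subunits and -1.14 for assembly factors, against 0.70 for all genes. All 11 tumours lay below the muscle for 39 of the 46 genes, 34 of 36 subunits and 4 of 8 assembly factors, as for 19.6% of all genes. Translocation tumours alone were lower for 13 genes, all subunits, and higher for 0 (8.46% and 3.95% of all genes). Rosa26 tumours alone were lower for 37, made up of 34 subunits, Ndufaf4, Ndufaf6 and Ndufa4, and higher for 0 (10.5% and 5.51% of all genes).

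This scale rests on TMM, which gave the muscle library a factor of 0.409. With plain total counts the median of all genes moved to 2.10 and that of the 46 genes from -2.23 to -0.79. Relative to the median of all genes, that of the 46 was -2.93 under TMM and -2.89 under total counts on the log2 scale. Under total counts 3 genes were called lower (2.62% of all genes), Ndufa4l2 was the 1 called higher (15.8% of all genes), and the assembly factors' median turned to 0.26. As a share of all counts the 46 genes held 0.474% in muscle, 0.210 to 0.628% in the translocation tumours and 0.0733 to 0.237% in the Rosa26 tumours, so translocation tumour 5 exceeded the muscle on that measure.

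Of the 7 core subunits, 6 were called lower. Ndufv2, with an iron-sulphur cluster next to the NADH site, had -2.90 ± 0.55 (SE; edgeR adjusted p = 0.00412) from 550 CPM in muscle. Ndufv1, which binds NADH, had -2.63 from 506 CPM in muscle. Ndufs7 and Ndufs3 of the quinone-binding module had -2.80 and -2.52, and Ndufs8 of the same module had -1.77. Ndufs1, at -1.61 ± 0.54 (SE; edgeR adjusted p = 0.0611), did not pass, although all 11 tumours lay below its 324 CPM in muscle.

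Accessory subunits covered a similar range. In the proximal membrane arm Ndufs5 was lower by a log2 fold change of -2.88 (edgeR adjusted p = 0.00805), at 4.82 to 14.7 CPM in the translocation tumours and 0.875 to 5.05 CPM in the Rosa26 tumours against 40.8 CPM in muscle. Ndufa1 of that arm had -1.16 and did not pass (edgeR adjusted p = 0.176). In the matrix arm Ndufs6 had -2.55 (edgeR adjusted p = 0.00375) and Ndufv3 -1.44 (edgeR adjusted p = 0.0197). In the distal membrane arm Ndufb4 had -2.86 (edgeR adjusted p = 0.00863) and Ndufb7 -1.63 (edgeR adjusted p = 0.0316). Ndufab1, with roles beyond complex I, had the subunit value nearest to 0, -1.08, and did not pass (edgeR adjusted p = 0.102). Under total counts Ndufa1, Ndufab1 and Ndufc2 turned positive, at 0.29, 0.32 and 0.21.

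**Figure D4:**
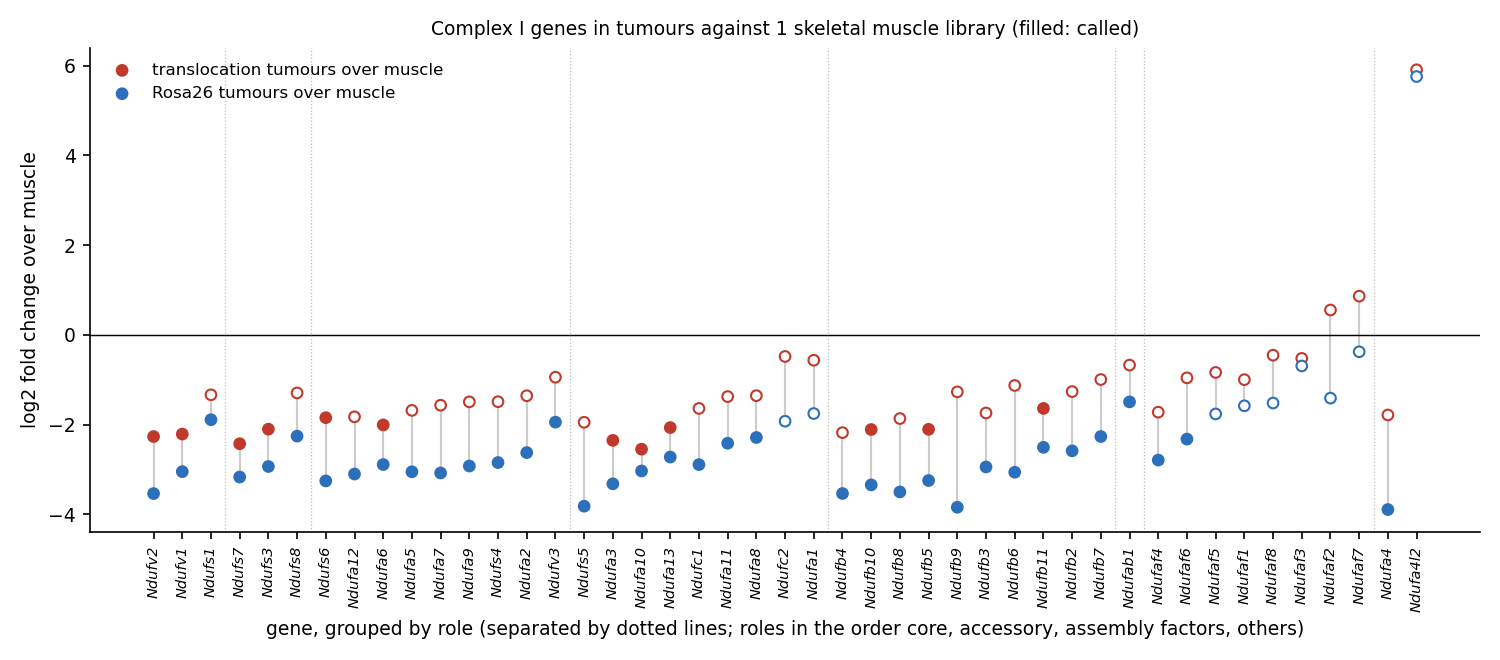
Log2 fold change of the complex I genes (1 is not shown) over the muscle library for translocation (red) and Rosa26 (blue) tumours, grouped by role and separated by dotted lines; filled points were called. Rosa26 points lie below translocation points for every gene shown. The subunits shown all lie below 0, Ndufaf2 and Ndufaf7 lie above 0 in the translocation tumours, and Ndufa4l2 lies at 5.91 and 5.76.

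On the TMM scale the assembly factors lay nearer to muscle than most subunits, and under total counts Ndufaf1, Ndufaf2, Ndufaf3, Ndufaf5 and Ndufaf8 turned positive. On the TMM scale Ndufaf4, which pairs with Ndufaf3, had the lowest fold change, -2.26 ± 0.75 (SE; edgeR adjusted p = 0.0569), at 17.9, 6.13, 16.4, 13.1 and 66.9 CPM in the translocation tumours, 4.20 to 17.6 CPM in the Rosa26 group and 80.0 CPM in muscle. Ndufaf6 had -1.64 (edgeR adjusted p = 0.0789). Ndufaf1, Ndufaf5, Ndufaf8, Ndufaf3 and Ndufaf2 had -1.29, -1.30, -0.99, -0.61 and -0.43. Ndufaf7, a methyltransferase that acts early in assembly, had 0.24 ± 0.68 (SE; edgeR adjusted p = 0.825). Its level was 24.0, 33.3, 23.3, 25.3 and 86.6 CPM in the translocation tumours, 10.5 to 25.8 CPM (median 14.7) in the Rosa26 group and 21.2 CPM in muscle. All 5 translocation tumours were above the muscle for Ndufaf7, as was Rosa26 tumour 2.

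The balance of assembly factors and subunits was compared within each library, where the scaling between libraries cancels. Assembly factors made up 2.14% of the joint CPM of the 44 genes in muscle. In the translocation tumours they made up 3.82, 4.60, 4.38, 4.28 and 5.78%, and in the Rosa26 tumours 4.69 to 5.74% (median 5.29%). Every tumour was therefore above the muscle on this share, and the genotypes overlapped. The median subunit TPM was 8.28 times the median assembly factor TPM in muscle and 3.09 to 5.97 times (median 4.14) in the tumours. With 1 muscle library this difference has no replicate check on the muscle side.

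Ndufa4l2 and Ndufaf7 were the 2 genes with a positive fold change for the mean of both tumour groups. Ndufa4l2 was at 0.879 CPM in muscle and at 6.18 CPM or more in all 11 tumours, with a log2 fold change of 5.83 ± 2.06 (SE) that did not pass (edgeR adjusted p = 0.0723). Ndufa4 was at 777 CPM in muscle, above all 11 tumours, with -2.84 ± 0.97 (SE; edgeR adjusted p = 0.0642). Ndufa4 was called lower in the Rosa26 tumours alone. Under total counts Ndufa4l2 was called, at 7.16 (edgeR adjusted p = 0.0330).

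The wider lists in this comparison behaved as follows. Of the mitochondrially encoded complex I subunits, 5 of 6 tested were lower, with a median log2 fold change of -3.80. mt-Nd2, part of the proton-pumping membrane arm, was at 6202 CPM in muscle and had -4.25 (edgeR adjusted p = 0.00159). mt-Nd6, encoded on the opposite strand of the mitochondrial genome from the others, had 0.04 and was not called. Of 42 other nuclear respiratory subunits, 33 were lower and 1 was higher, with a median of -2.24; the higher one was Cox6a1, the non-muscle form of that cytochrome oxidase subunit, at 3.57 (edgeR adjusted p = 0.00353). Of 11 assembly factors without the Ndufaf name, Ecsit was lower, at -2.67 (edgeR adjusted p = 0.00270), and the other 10 were not called. Of 13 regulators of mitochondrial biogenesis 3 were lower: Tfb2m, a mitochondrial transcription factor, at -2.06, and the nuclear receptors Esrrb and Esrrg at -5.41 and -3.68. The Esrrb value lay near the floor, with 1.66 CPM in muscle and means of 0.0 and 0.196 CPM in the translocation and Rosa26 tumours. Of 16 skeletal muscle markers 4 were called lower, with a median of -6.68, and 4 of 8 macrophage markers were higher, so the cell make-up of tumour and muscle differs and its part in the complex I difference cannot be told apart from a change within cells.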

How the data were processed

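RNA was read from total RNA by stranded libraries with ribosomal RNA depletion, per the labels' protocols. The authors deposited whole-number counts per Ensembl gene, not normalized, in 1 table. Build mm10 and the tools STAR 2.7.5a, cutadapt, featureCounts, RSEM and DESeq2 appear, without roles, in the submitters' processing notes. Sources used here do not give the strand setting or the handling of multi-mapping reads; 17 of the 46 genes overlap another coding gene (4 on the same strand), and processed pseudogenes may share reads. Symbols and lengths came from GENCODE M21, which held all 55536 identifiers. Another 5 noncoding entries with Nduf names were left out.

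Genotypes were compared over 11 tumours with edgeR 4.0.16 (R 4.3.3): TMM, filterByExpr at a minimum count of 10, robust quasi-likelihood tests and Benjamini-Hochberg adjustment over all genes. Muscle was compared in a fit of 12 libraries. Each SE was derived from the test, as the absolute log2 fold change divided by the square root of the F statistic. DESeq2 1.42.0 was an alternative. The scripts were tested on simulated data. Length trends were removed as per-library lowess curves (span 0.3) of log2 deviation on longest transcript. Replicate numbers follow sample order and pair nothing. Genes named were all called genes, the 2 assembly factors of smallest adjusted p, core subunits, assembly factors, the extremes of each accessory group against muscle, the extremes of level, Ndufa4 and Ndufa4l2, and up to 3 per list. Members and lists were chosen with earlier results of these data known. Of the genes so taken, 1 is not reported here.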

Additional observations from a re-analysis of the deposited data

Results flagged for a closer look

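Within each tumour group, 30 named genes were checked for a library far from the others, 60 groups in all, of which 11 had one by Dixon's criterion; chance gives about 1 in 20 groups. In 9 of the 11 the library was translocation tumour 5, standing above the other 4 translocation tumours. Its values were 57.6 CPM for Ndufaf2, 66.9 CPM for Ndufaf4, 33.3 CPM for Ndufaf5 and 86.6 CPM for Ndufaf7. For the subunits they were 136 CPM for Ndufb10, 126 CPM for Ndufb2, 172 CPM for Ndufv1 and 242 CPM for Ndufv2, and for Ndufa4 the value was 693 CPM. Rosa26 tumour 2 was high for Ndufa2, at 102 CPM, and Rosa26 tumour 4 was low for Ndufaf1, at 4.55 CPM. The flags are not independent, since they come from a few libraries and from genes that vary together. Ndufa10, Ndufa11, Ndufb9 and Ndufc2, which the text names for other reasons, were not among the 30 genes checked.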

How the results depend on the processing

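No paired analysis was possible because the labels give no replicate numbers that the groups share. For translocation against Rosa26 tumours, the 5 genes called higher became 3 with DESeq2 size factors, 31 with the DESeq2 Wald test, 2 with no filter, with muscle kept in the fit or with skeletal muscle markers as covariate, 30 with sex as a covariate, 0 with Rosa26 tumours 5 and 6 summed, and 0 to 8 without 1 tumour. Of the alternatives chosen after seeing the data, total counts gave 1 and the length correction 0, alone or with translocation tumours 2 and 5 and Rosa26 tumour 4 left out. No alternative called any of the 46 genes lower. Calls over all genes, in either direction, moved as well from 460. They were 91 with Rosa26 tumours 5 and 6 summed, 284 with skeletal muscle markers as covariate and 63 to 744 without 1 tumour. With the DESeq2 Wald test there were 2566, and with sex as a covariate 2534. The median log2 fold change of subunits fell from 1.26 to 0.76 without those 3 libraries, 0.55 with the length correction and 0.28 with both; that of assembly factors went from 1.11 to 0.45, 0.56 and 0.065. Ndufa4l2 turned negative at -0.37 with the length correction and -0.22 with both, and ran from -0.17 to 0.82 without 1 tumour.

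Against muscle, total counts left 3 lower calls of 30, 1 of 13 for translocation and 9 of 37 for Rosa26 tumours, with medians of -0.94 for subunits and 0.26 for assembly factors. Under them Ndufaf1, Ndufaf2, Ndufaf3, Ndufaf5 and Ndufaf8 turned to 0.15, 0.98, 0.83, 0.13 and 0.37, Ndufa1 to 0.29, Ndufab1 to 0.32 and Ndufc2 to 0.21. The translocation count was 24 with the length correction, 36 without the 3 libraries and 9 to 30 without 1 tumour. Among the fits without 1 tumour it was highest without translocation tumour 5. The mean of both groups gave 27 to 39 in those fits. Over all genes, lower calls for that mean went from 2521 to 582 with total counts and 3182 with the length correction. They were 3970 without the 3 libraries and 2076 to 3475 without 1 tumour. All-gene counts for each tumour group alone are not given for these settings. Ndufaf7 turned to -0.092 with the length correction and -0.12 without the 3 libraries, and ran from -0.035 to 0.31 without 1 tumour. The cause of these changes was not tested. Levels in translocation tumour 2, at 2.96 M counts, are the least precise; every member had counts in each tumour group.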

Other observations

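Ndufb9, a subunit of the distal membrane arm, was chosen here after its values were seen. It measured 216, 56.9, 154, 116 and 855 CPM in translocation tumours 1 to 5, 12.4 to 77.3 CPM (median 45.5) in the Rosa26 tumours and 674 CPM in muscle. With all libraries its log2 fold change between the genotypes was 2.62 ± 0.66 (SE), the largest of the subunits, and did not pass (edgeR adjusted p = 0.0535). Without translocation tumour 5 it was 1.57, below 1.86 for Ndufs5 and 1.64 for Ndufb6, and with the length correction it was 1.48. Translocation tumour 5 was above the muscle for it, and Rosa26 tumours 1 and 2 were above translocation tumour 2. Ndufc2, of the proximal membrane arm and likewise chosen late, was the other subunit for which a tumour exceeded the muscle, at 185 CPM in translocation tumour 5 against 115 CPM.

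Within the groups, the 46 genes had a median SD of log2 CPM of 0.57 over the translocation and 0.59 over the Rosa26 tumours. The coding genes tested had 0.73 and 0.49.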
